A study of Mus musculus with 4 samples.

Results

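The transcripts of 7 transcription factors and nuclear receptors of Sertoli cell identity, *Sox9*, *Sox8*, *Wt1*, *Gata4*, *Gata1*, *Nr5a1* and *Nr0b1*, were followed in ID4-EGFP+ spermatogonia with and without *Cnot3*. The members were picked by gene symbol, and all 7 were found among the 54920 genes listed for each library. RNA-seq covered 2 control and 2 *Cnot3*-cKO libraries from mouse testes at postnatal day 8 (P8). Control mice carried *Cnot3* flox/flox and the *Id4-eGfp* reporter, and *Cnot3*-cKO mice carried *Ddx4*-creER in addition. Both groups received 4-OHT from P1 to P3, which activates the Cre recombinase, and the cells were sorted for EGFP from a trypsin and Accutase suspension of the testis. *Ddx4* is a germ cell gene, so the Cre is driven in germ cells. The labels call the control genotype wild-type. The study describes its replicates as biological and counts more of them than the libraries per group analysed here. The number of animals behind a library is not stated.

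Sertoli cells are the somatic nurse cells that line the seminiferous tubule and hold the spermatogonial stem cell niche. SOX9, which acts after SRY in sex determination, directs them together with its relative SOX8. WT1, GATA4 and NR5A1 (also called SF-1) act before and beside SOX9 in the fetal gonad and activate genes such as *Amh*. GATA1 is best known from blood cells and appears in Sertoli cells after birth, and NR0B1 (also called DAX1) is a nuclear receptor without the usual DNA-binding domain that represses NR5A1.

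Libraries held 22192964 to 43378493 counted reads, more in both controls than in either *Cnot3*-cKO library. *Cnot3*, the deleted gene, fell from 54.4 ± 5.94 to 19.6 ± 0.521 CPM (counts divided by the TMM-scaled library size; SD, n = 2 per group), which is a log2 change of -1.48 (SE of 0.13, adjusted p = 1.48e-05). Here and below, adjusted p-values come from edgeR's quasi-likelihood test over 23952 tested genes, and calls needed more than a 2-fold change besides an adjusted p below 0.01. The p-values measure the spread between these libraries only. The sorted cells were rich in germ cell transcripts, with *Ddx4* at 714 CPM in controls, against 737 CPM in *Cnot3*-cKO libraries. A list of 9 germ cell genes with *Ddx4* summed to 4901 to 5294 CPM in controls, against 4490 to 4675 CPM in *Cnot3*-cKO libraries. Its median log2 fold change was -0.14, so *Ddx4* alone does not show equal germ cell content. When libraries were scaled to the summed counts of these same 9 genes, the median was 0.01, which is near 0 by construction. In bulk RNA, more cells of a type and more RNA per cell cannot be told apart.

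All 7 transcripts were detected in every library, and each was higher in both *Cnot3*-cKO libraries than in both controls. Among all tested genes, 30.5% were placed in this way. Of the 7, 6 were called higher, against 4.03% of all tested genes, and none was called lower. Without the fold change limit the count was also 6, against 6.21% of all tested genes. The median log2 fold change of the 7 was 1.66, with a range from 1.52 to 2.23, and the median over all tested genes was 0.01. Together the 7 genes took 2750 and 2397 reads in the controls and 4395 and 5691 reads in the smaller *Cnot3*-cKO libraries, which is 68.3 and 57.0 CPM against 194 and 199 CPM.

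**Figure D1:**
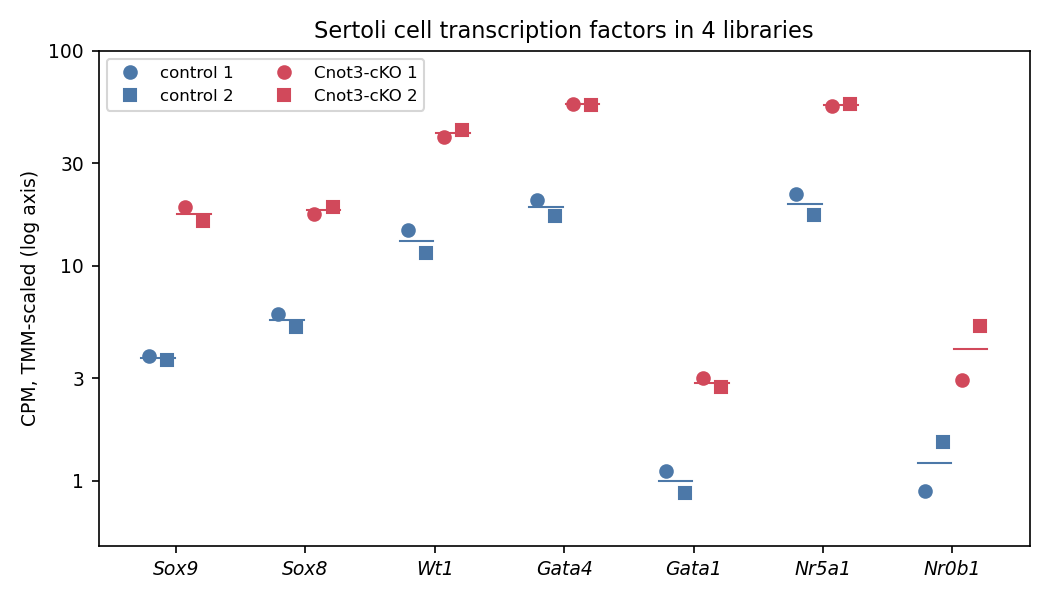
Level of the 7 genes in each library, in CPM scaled with TMM on a log axis. Circles mark replicate 1, squares replicate 2, and short lines the group means. Every *Cnot3*-cKO library (red) lies above both controls (blue), and *Nr0b1* has the widest gap between replicates in either group.

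*Sox9* had 153 and 153 reads in the controls, or 3.80 and 3.64 CPM, and 425 and 461 reads in *Cnot3*-cKO cells, or 18.8 and 16.1 CPM. The groups were far apart, since the lower *Cnot3*-cKO library was 4.24-fold above the higher control. The log2 fold change was 2.23 (SE of 0.20, adjusted p = 1.57e-05), the highest of the 7. *Sox8*, which overlaps with *Sox9* in function, had 5.98 and 5.21 CPM in controls, against 17.4 and 18.7 CPM in *Cnot3*-cKO libraries. Its libraries did not overlap, and its log2 fold change was 1.69 (SE of 0.18, adjusted p = 7.41e-05).

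*Wt1* encodes a zinc finger protein needed to keep the Sertoli cell fate. It had 14.6 and 11.5 CPM in controls, against 39.9 and 42.9 CPM in *Cnot3*-cKO libraries, which is a log2 change of 1.66 (SE of 0.15, adjusted p = 1.98e-05), and the groups did not overlap. *Gata4*, a zinc finger factor of the somatic gonad, had 20.3 and 17.1 CPM in controls, against 56.4 and 56.2 CPM in *Cnot3*-cKO libraries. Its *Cnot3*-cKO libraries were nearly equal, and its log2 fold change was 1.59 (SE of 0.13, adjusted p = 7.98e-06). *Gata1* was the least abundant of the 7 per length, with 45 and 37 reads in controls, against 68 and 78 reads in *Cnot3*-cKO libraries. On average this is 0.998 ± 0.168 CPM against 2.86 ± 0.197 CPM, without overlap. The log2 fold change of *Gata1* was 1.52 (SE of 0.36, 95% interval from 0.73 to 2.30), and its adjusted p of 0.0106 did not pass the threshold.

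The nuclear receptors differed in how well they were measured. *Nr5a1*, the activator, had 21.6 and 17.2 CPM in controls, against 55.6 and 56.8 CPM in *Cnot3*-cKO libraries, which is a log2 change of 1.54 (SE of 0.14, adjusted p = 1.55e-05), without overlap between groups. *Nr0b1*, its repressor, had 36 and 64 reads in controls, against 67 and 151 reads in *Cnot3*-cKO libraries, or 0.894 and 1.52 CPM against 2.96 and 5.27 CPM. Within each group the *Nr0b1* libraries lay 0.77 and 0.83 apart on the log2 scale, while the median gap over the 7 genes was 0.33 in controls and 0.11 in *Cnot3*-cKO cells. *Nr0b1* was called at a log2 fold change of 1.77 (SE of 0.38, adjusted p = 0.00620). Without *Cnot3*-cKO replicate 2 its log2 fold change was 1.28 and it was no longer called (adjusted p = 0.0379).

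Levels of different genes were compared per length as RPKM, the CPM divided by the kilobases of merged exons. *Gata4* was highest in controls with 4.78 ± 0.583 (SD, n = 2), followed by *Nr5a1* with 4.57 ± 0.728, and these 2 did not differ beyond their spread. *Wt1* with 2.11 ± 0.362 and *Sox8* with 1.79 ± 0.177 came next and also lay within their spread. *Sox9* had 0.899 ± 0.0277, *Nr0b1* 0.668 ± 0.245 and *Gata1* 0.410 ± 0.0690. The mean of *Sox9* lay within the SD of *Nr0b1*, and the SD ranges of *Nr0b1* and *Gata1* overlapped, although no control library of one reached those of the other. In *Cnot3*-cKO cells the order was the same, from *Gata4* at 14.4 ± 0.0336 and *Nr5a1* at 13.3 ± 0.193 down to *Gata1* at 1.17 ± 0.0806. *Gata4* was above *Nr5a1* in each of the 4 libraries. *Gata4* and *Nr5a1* changed places when the longest transcript was used as the length. With that length *Wt1* was at 4.23 and *Sox8* at 1.86 in controls, so the closeness of these genes depends on the length used.

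The mixture of the 7 transcripts was then compared, since the share of each gene among their summed reads does not depend on library scaling. *Sox9* made up 5.97 ± 0.579% of these reads in controls and 8.89 ± 1.11% in *Cnot3*-cKO cells, and both *Cnot3*-cKO libraries were above both controls. *Nr5a1* went from 30.9 ± 0.991% to 28.6 ± 0.0690% and *Gata4* from 29.8 ± 0.173% to 28.7 ± 0.554%, both without overlap and below the controls. *Sox8*, *Wt1*, *Gata1* and *Nr0b1* overlapped between the groups, with *Wt1* at 20.8 ± 0.922% and 21.1 ± 0.742%. Each of the 3 shares without overlap had p = 0.333 in a two-sided exact permutation test over libraries, which is the smallest that 2 against 2 can give. Shares add up to the whole, so the higher *Sox9* share goes with lower shares elsewhere. For each *Wt1* read, a library held 0.0763, 0.0766, 0.0753 and 0.0635 *Gata1* reads and 0.259, 0.317, 0.471 and 0.375 *Sox9* reads, controls first.

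**Figure D2:**
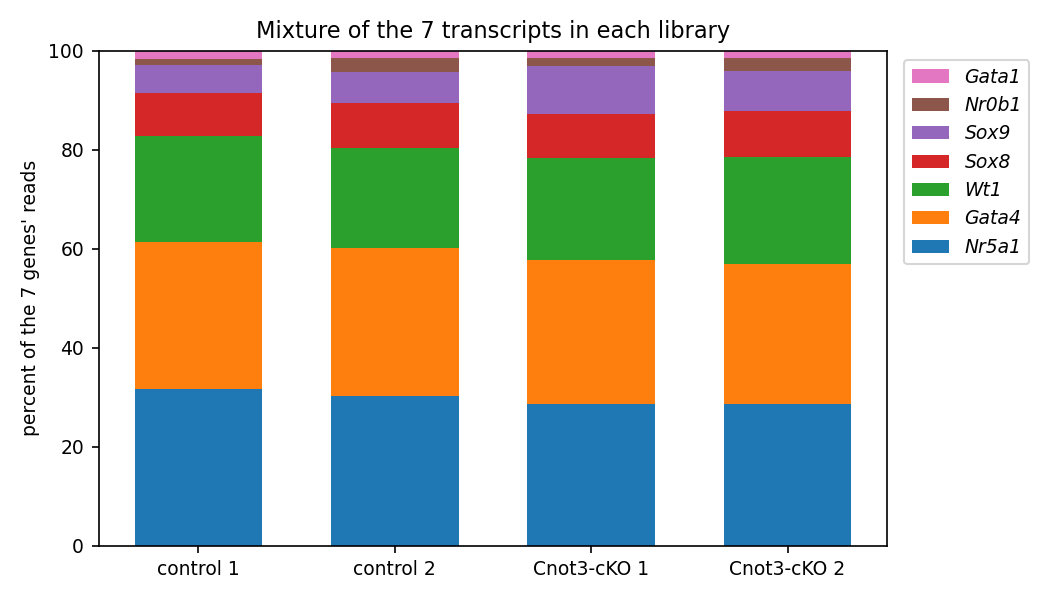
Share of each gene in the summed reads of the 7 genes, in percent, 1 bar per library. The bars are alike across groups except for *Sox9*, at 5.56% and 6.38% in controls and 9.67% and 8.10% in *Cnot3*-cKO libraries, and the smaller downward shifts of *Nr5a1* and *Gata4*.

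Positions are given on GRCm38 (mm10). *Sox9* lies on chromosome 11 from 112782224 to 112787760, *Sox8* on chromosome 17 from 25565892 to 25570686 and *Gata4* on chromosome 14 from 63198922 to 63271692. *Wt1* (105126529 to 105173616) and *Nr5a1* (38692656 to 38714542) share chromosome 2, and *Gata1* (7959260 to 7978071) and *Nr0b1* (86191764 to 86195947) share the X chromosome. The gene next to *Nr5a1*, 8.83 kb away, is another nuclear receptor gene, *Nr6a1*, which is active in germ cells. *Nr6a1* was lower in *Cnot3*-cKO cells with a log2 fold change of -0.90 (SE of 0.10, adjusted p = 8.43e-05) and was not called, since it was short of the fold change limit. *Nr5a1os*, on the opposite strand within *Nr5a1* but without shared exon bases, had 1 and 4 reads in controls, against 31 and 19 reads in *Cnot3*-cKO libraries (called higher, adjusted p = 0.00681). *Wt1os*, which starts 0.019 kb from *Wt1*, had 44 and 45 reads in controls, against 58 and 69 reads in *Cnot3*-cKO libraries, and its log2 fold change of 1.20 was not called (adjusted p = 0.0347). Whether reads were counted by strand is not stated, so sense and antisense reads may not be separated for these pairs or for *Sox8*, which shares 329 exon bases with an antisense transcript. Of the 14 nearest tested genes on either side of the 7, none was called. *Gata1*, which is known to use different first exons in testis and blood, has 3 annotated start sites spread over 13905 bases, and counts per gene do not separate them.

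RefSeq promoter windows, 250 bases before to 50 bases after the start on GRCm38.p6, were found for 3 of the 7 genes, *Sox8*, *Gata1* and *Nr0b1*. They were searched on both strands for AGGTCA, the core of sites bound by NR5A1 and other nuclear receptors. Searches for GATA factors used the letters TGATAA, present in 9.05% of 32851 such windows, or the letters AGATAA, present in 11.2%. Searches for SOX factors used the letters AACAAT, present in 10.7%, or the letters ACAAAG, present in 18.7%. The letters GGGGGCG, a core bound by zinc finger proteins, were present in 16.4%. *Nr0b1* held 1 AGGTCA, which 16.3% of the windows hold, and 1 ACAAAG. The 2 windows below hold the only matches found in the 3 promoters, and capitals mark the motif. They lie at chrX:86191640-86191663 and chrX:86191665-86191688 on the forward strand, with the motifs starting at -126 and -101 from the RefSeq start.
Nr0b1 first window: gagctttcgAGGTCAtggccacac
Nr0b1 second window: cattcaagcACAAAGgcgcgtccc
None of the 6 motifs was present in the *Sox8* and *Gata1* windows. A match describes the letters only and does not show that a factor binds.

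CNOT3 belongs to the CCR4-NOT complex, which shortens poly(A) tails and is brought to mRNAs by proteins that read motifs in the 3′ untranslated region. Such regions of the 7 genes, taken from the transcript with the longest coding sequence, were searched for ATTTA and for TGTANATA, the element read by Pumilio proteins. ATTTA was present in 6 of 7, from 6 copies in *Sox9* to none in *Gata1*, and in 64.6% of 15652 tested genes with an annotated region. TGTANATA was present in *Wt1* and *Gata1*, and in 23.3% of these tested genes. Over tested genes the median log2 fold change was -0.006 with ATTTA and 0.03 without it. It was -0.03 with TGTANATA and 0.02 without it. The sites are shown with the element in capitals, at chr2:105173432-105173455 and chr2:105173444-105173467 on the forward strand and chrX:7959651-7959674 on the reverse strand. The printed windows of *Wt1* overlap, while its elements are separate.
Wt1 site 1: aaatactgTGTAAATAtatatgta
Wt1 site 2: aatatataTGTATATAtatgatgt
Gata1 site: atgaactaTGTAGATAagggtgac

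The relatives of the 7 proteins did not move as a block. Of 14 tested SOX genes outside the 7, 1 was called higher and 3 lower (1 to 3 under the other scalings). This compares with 4.03% of all tested genes called higher and 0.735% called lower. The SOX median was 0.01 on the log2 scale, or 0.004 to 0.15 under the other scalings. *Sox6* rose by 1.33 (adjusted p = 7.08e-04), while *Sox11* (-1.28), *Sox10* (-1.19) and *Sox3* (-1.13), the last a gene of progenitor spermatogonia, fell. The *Sox3* call was lost without control replicate 2, at a log2 fold change of -0.9999, and those of *Sox3* and *Sox10* when scaled to germ cell genes (-0.98 and -1.03). *Sox10* is the third member of the SOXE subfamily beside *Sox8* and *Sox9*, with 266 and 320 reads in controls, against 74 and 85 in *Cnot3*-cKO libraries. *Sry*, which starts testis determination in the fetus, had no read in any library. Of 5 tested GATA and FOG genes, *Gata6*, another GATA factor of the somatic gonad, rose from 5.12 to 18.0 CPM (log2 fold change 1.81, SE 0.20, adjusted p = 7.00e-05). *Gata2* fell from 6.19 to 2.19 CPM (log2 fold change -1.48, SE 0.30, adjusted p = 0.00456), a call lost without *Cnot3*-cKO replicate 1 (-1.14, adjusted p = 0.0102). *Zfpm2*, the FOG cofactor of GATA4, had 3.60 and 6.46 CPM in the groups and was not called (adjusted p = 0.0294). None of the 4 EGR genes, whose zinc fingers resemble those of WT1, was called.

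Among 41 tested nuclear receptor genes outside the 7, 3 were called higher (7.32%) and 2 lower, against 4.03% and 0.735% of all tested genes. Their median was -0.02, or -0.03 to 0.13 under the other scalings. The vitamin D receptor gene *Vdr* rose from 1.26 to 4.58 CPM (log2 fold change 1.87), and the thyroid hormone receptor genes *Thrb* and *Thra* rose by 1.45 and 1.29. *Rarg*, a retinoic acid receptor gene, fell by 1.37 and *Nr2e1* by 2.40 on the log2 scale. Of 15 tested regulators of early gonad development, *Gata6* was called higher and *Six4* lower, and *Dmrt1*, which spermatogonia and Sertoli cells both express, had a log2 fold change of -0.36 (adjusted p = 0.0153). *Six4*, at -1.02, lost its call without control replicate 1 (-0.96), without *Cnot3*-cKO replicate 2 (-0.93) and under 3 other scalings (-0.98 to -0.86).

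**Figure D3:**
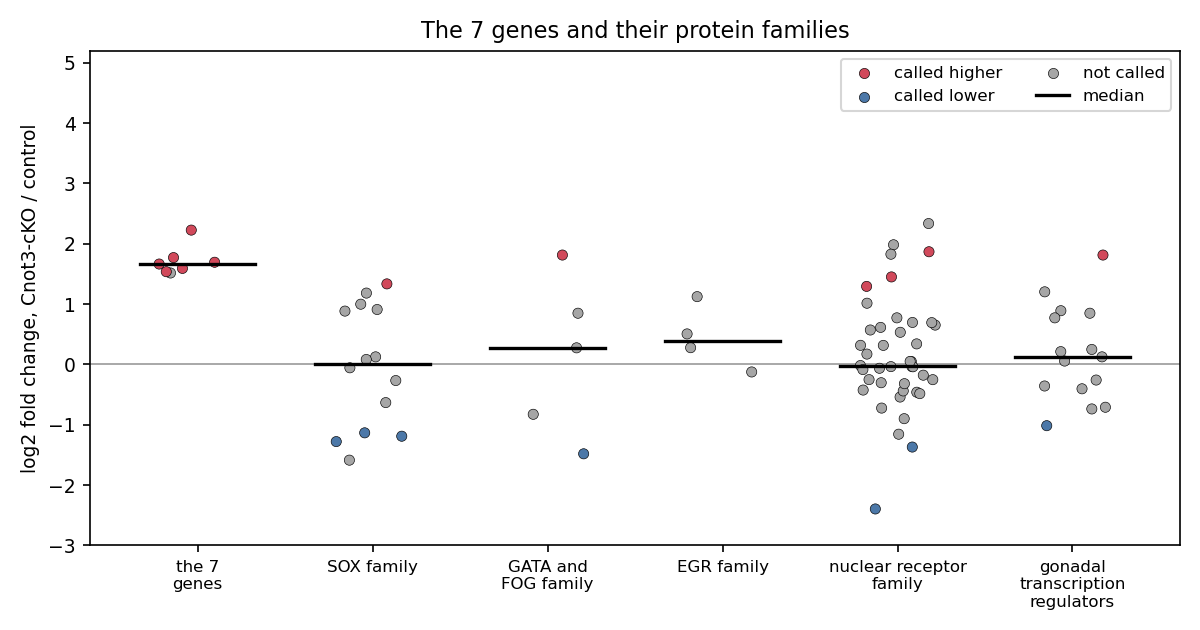
Log2 fold change, *Cnot3*-cKO over control, of each tested gene in the group of 7 and in 5 lists of related regulators, 1 point per gene. All 7 lie between 1.52 and 2.23, while SOX and nuclear receptor genes outside the 7 spread on both sides of 0. Their medians are 0.01 and -0.02, or up to 0.15 and 0.13 under other scalings. *Gata6*, *Zfpm2*, *Sox4* and *Nr2f2* appear in 2 lists.

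Genes reported as targets of the 7 proteins were listed next, by hand from textbook knowledge and the paper. Some, such as *Amh* and *Dhh*, are also Sertoli cell markers, so this list is not separate from Sertoli cell genes. Of the 15 reported targets, all tested, 10 were called higher, against 4.03% of all tested genes, and none lower (median 1.82). *Amh*, the anti-Müllerian hormone gene activated by SOX9, NR5A1, GATA4 and WT1, rose from 3.13 to 19.3 CPM (log2 fold change 2.62, SE 0.19, adjusted p = 4.21e-06). *Dhh*, a Sertoli cell hedgehog ligand, rose by 2.39, *Inhbb*, an inhibin and activin subunit, by 2.18 and *Kitl*, the KIT ligand, by 2.16. The 5 that were not called were *Ptgds*, *Col9a3*, *Cyp26b1*, *Tesc* and *Etv5*, with *Ptgds* at a log2 fold change of 2.25 (adjusted p = 0.0127). Of 12 other Sertoli cell genes, 8 were called higher, against the same 4.03%, with a median of 1.85 and *Krt18* the highest at 3.85. *Rhox5*, a homeobox gene named after its values were seen, was at 2.08 and 2.35 CPM (log2 fold change 0.18, adjusted p = 0.772).

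Many of the 7 genes are also active outside Sertoli cells, and marker lists of those cells were counted in the same way. The counts here and in the next paragraph stand against 4.03% of all tested genes called higher and 0.735% called lower. *Nr5a1*, *Gata4* and *Nr0b1* are expressed in steroid-producing cells. Of 7 tested Leydig and steroidogenic genes, 4 were called higher, with a median of 1.20, and the summed level of the list was 384 to 423 CPM in controls, against 897 to 960 CPM in *Cnot3*-cKO libraries. *Hsd3b1* rose by 1.35 and *Lhcgr* by 1.57, and *Insl3*, the defining hormone of these cells, had no read in any library. How reads that match several genes were counted is not stated, so a lack of reads may not mean a lack of transcript. *Gata1* is a blood gene, and none of 8 tested erythroid genes was called, with a median of 1.02. The summed erythroid level was 9.91 to 10.6 CPM in controls, against 13.2 to 22.6 CPM in *Cnot3*-cKO libraries. Within it *Hbb-bs*, a globin, had 94 and 129 reads in controls, against 89 and 248 in *Cnot3*-cKO libraries, and the erythroid factor *Klf1* had 27 and 18 against 4 and 23. The part of these cells in the higher levels of the 7 genes was not tested.

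Lists of other cell types differed in their counts and medians, and their part was not tested either. All 8 macrophage genes were called higher, with a median of 1.36 and a summed level of 141 to 228 CPM in controls, against 426 to 518 CPM in *Cnot3*-cKO libraries. Without control replicate 2, *Adgre1* (0.79), *Csf1r* (0.90), *C1qb* (0.98) and *Cd68* (0.998) fell short of the fold change limit, as did *Adgre1* (0.96) and *Cd68* (0.93) without *Cnot3*-cKO replicate 1. Of 5 tested endothelial genes 2 were called higher (median 0.48), of which *Kdr* lost its call without *Cnot3*-cKO replicate 1 (0.99, adjusted p = 0.0199). None of 6 peritubular myoid genes was called (median 0.53), but *Acta2* was (1.007 and 1.09) under library size only and germ cell gene scaling. Of 9 germ cell genes, *Nanos3* was called lower and none higher (median -0.14, or 0.01 by construction when scaled to this list itself). Of 10 stem and undifferentiated spermatogonia genes *Id4* was called higher and *Lin28a* lower (median -0.06, or 0.08 under the scaling with the highest median). The *Id4* call was lost without control replicate 2 (0.99) and without *Cnot3*-cKO replicate 2 (0.84). Scaling to germ cell genes ended the calls of *Nanos3* (-0.91) and *Lin28a* (-0.94) and added *Gfra1* as higher (1.05), and library size only also ended that of *Nanos3* (-0.9995). Of 8 tested genes of the ovarian somatic programme, which SOX9 opposes, *Rspo1* was called lower (log2 fold change -1.47) and none higher. The *Rspo1* call was lost without control replicate 2 (-1.20), without *Cnot3*-cKO replicate 2 (-1.20) and under 3 other scalings (-1.42 to -1.30), and *Bmp2* was called higher under 2 of them (1.16 and 1.24). *Foxl2*, its defining factor, had 2 and 0 reads in controls, against 6 and 2 in *Cnot3*-cKO libraries.

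**Figure D4:**
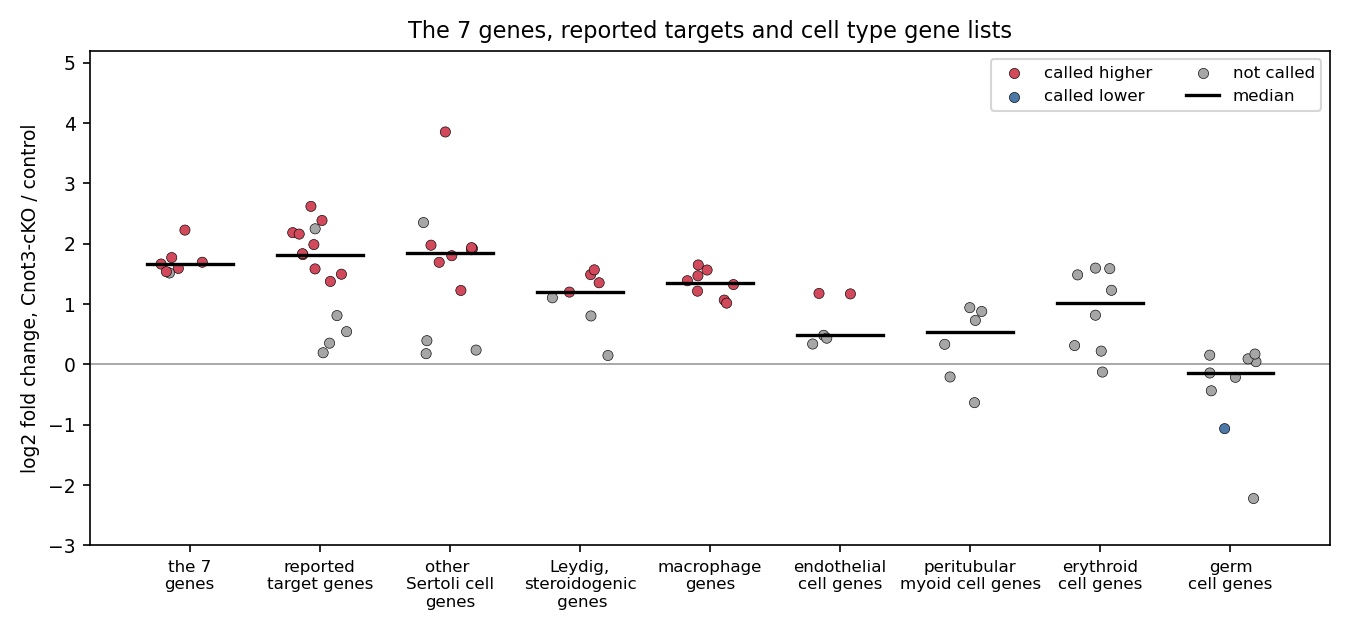
Log2 fold change of each tested gene in the group of 7, in their reported targets and in 7 cell type lists, with black lines for the medians. The medians of the 7 genes (1.66), reported targets (1.82) and other Sertoli cell genes (1.85) lie above those of the remaining lists. The latter are Leydig (1.20), macrophage (1.36), endothelial (0.48), peritubular myoid (0.53), erythroid (1.02) and germ cell (-0.14). The germ cell median was 0.01 by construction when scaled to that list itself. The lists were chosen with earlier results of these data known, so this order is a description and not a test.

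The genes with the profile most like that of *Sox9* were sought by Euclidean distance between log2 CPM profiles over the 4 libraries, each centred on its control mean, among 15518 genes whose average log2 CPM reached 1. Among the nearest were *Chp2* (distance 0.10), *Wnt6* (0.12), *Gpr37* (0.14) and *Gm10220* (0.20). For the mean profile of the 7 they were *Gm14569* (0.05), *Tbc1d4* (0.05), *Basp1* (0.05), *Anxa3* (0.06) and *Clu* (0.08), the last a Sertoli cell secretory gene.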

How the data were processed

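The deposited values were read counts per gene, 1 table per library, not normalized. The authors sequenced TruSeq stranded total RNA libraries, removed reads whose mean Phred score was under 20, used STAR for alignment (mm10) and obtained gene counts with featureCounts on GENCODE M24. Use of strand and of reads that match several genes is not given in the sources used here. Libraries were grouped by title. Here, edgeR 4.0.16 (R 4.3.3) was run on all genes with its default expression filter, TMM scaling and the quasi-likelihood F test for *Cnot3*-cKO against control, with Benjamini-Hochberg adjustment over all tested genes. Standard errors were derived from the fold change and its F statistic. Log2 CPM profiles used a prior count of 2. DESeq2 1.42.0 was an alternative, since the paper used DESeq2. Lengths, positions and 3′ regions came from GENCODE M21 on GRCm38. The procedure was tested on simulated data.

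The members and lists were chosen with earlier results of these data known. Named genes were the 7, *Cnot3*, up to 4 called genes of each list by size of change, defining markers, overlapping and neighbouring genes and the nearest profiles. Lists were described by counts and medians, without a set test. Some results for single genes are not reported here.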

Additional observations from a re-analysis of the deposited data

How the results depend on the processing

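Each of the 7 genes kept its direction under all 18 alternatives, and *Sox9* was called in every one. Log2 fold changes ran from 0.97 (*Gata1*, DESeq2 with a fold change prior) to 2.38 (*Sox9*). The settings on adjusted p, fold change limit, fold change test and robust dispersion kept the main fold changes, so direction could not change there. Between 6 and 7 of the 7 were called under each alternative but one. The test against a fold change of 2, which asks for more by construction, left 1 of the 7, 87 of all genes and 12 list genes higher, and *Cnot3* (-1.48) was not called (adjusted p = 0.0346). *Gata1* was called under 9 alternatives, among them library size only, germ cell gene scaling, no filter and robust dispersion, with adjusted p from 0.00187 to 0.623 over all alternatives. An adjusted p under 0.05 gave 1452 genes higher and no fold change limit gave 1488. Without that limit 56.9% of all called genes were higher, against 84.6% with it.

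Scaling to the germ cell genes placed the all-gene median at 0.16 and left all 10 reported targets called. It set the germ cell list median at 0.01, near 0 by construction, since the scaling used that list. Leaving out 1 library at a time gave -1.59 to -1.37 for *Cnot3*, 943 to 1225 genes higher, -0.38 to 0.92 percentage points for the difference in the *Wt1* share and -0.58 to 0.78 for the *Nr0b1* share, whose signs therefore rest on single libraries. With the longest transcript as length, 5 of 7 genes kept their place in the order. Thinning every library to 22192964 reads, added after the data had been seen, left 6 of the 7 called. With the replicate block, 7 of 7 genes were called (*Gata1* adjusted p = 0.00506) and 1155 genes were higher. The libraries share only a number, and deviations of the libraries numbered 1 correlated by 0.0822 over 15519 genes. Why these values changed was not tested. Of 48 called list genes, 10 lost the call without 1 library, as given beside each.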
